A study of Mus musculus with 6 samples.

Results

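Mouse granulocyte-monocyte progenitors kept for 3 days with a combination of 3 drugs were compared with untreated cells at day 0. The comparison takes 4 of the 6 sequenced cultures, chosen by their labels: 2 biological replicates with the drugs and 2 untreated ones. All 6 cultures came from C57BL6 bone marrow, expressed ER-HOXA9, in which the homeobox protein HOXA9 is joined to part of the estrogen receptor, and grew in RPMI with 10% heat-inactivated serum, 4 mM glutamine, stem cell factor and 0.5 µM beta-estradiol. The untreated cells therefore carried the active fusion as well. The combination held GSK-LSD1 at 200 nM, which blocks the demethylase LSD1, mercaptopurine at 5 µM, an analog of a purine base, and cerulenin at 5 µM, which blocks fatty acid synthase. The other two cultures were kept 3 days with the solvent DMSO, and their values are set beside the net change. Without them, 3 days of culture and the drugs cannot be told apart, and the 3 drugs were given together, so none can be told from the others. Polyadenylated RNA was counted per gene. Bulk RNA does not tell fewer cells of a type from less RNA per cell. Nothing in the sources says whether the cells of 1 culture descend from 1 clone, and p-values measure the spread between these cultures.

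HOXA9 is a transcription factor of stem and progenitor cells whose persistent activity keeps myeloid progenitors immature and dividing. LSD1, encoded by Kdm1a, removes methyl groups from histone H3 and is brought to myeloid genes by the repressors GFI1 and GFI1B. As progenitors mature into neutrophils they make granule proteins in order, first those of the primary granules, then those of the secondary and gelatinase granules, while monocytes acquire other receptors and lysosomal enzymes. Mercaptopurine enters the purine salvage pathway through the enzyme HPRT, and its products interfere with purine synthesis and DNA replication.

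Markers of the labelled cell type ranged widely in level. Mpo, the myeloperoxidase of early granules, was at 4604 ± 639 TPM (SD, n = 2), a level per gene length within a library, in untreated cells. Kit, the receptor for stem cell factor, was at 552 ± 57.5 TPM and Cd34, a progenitor surface protein, at 1656 ± 33.1 TPM. Other markers of this cell type were lower in untreated cells: the transcription factor genes Cebpa and Sfpi1 at 189 and 131 TPM, Elane at 34.8 TPM and Irf8 at 7.51 TPM. Library totals ran from 11305666 to 16948697 counts over the 6 cultures, and 11283 of 23337 genes had enough counts to be tested. Rn45s, a ribosomal RNA precursor, made up 22.5% ± 2.96 (SD, n = 2) of day 0 counts, whereas its share was 15.8% ± 0.155 in the drug cultures and 15.4% ± 1.07 in the vehicle cultures.

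The day 0 replicates differed from each other by gene length, which touches every comparison with day 0. In the shortest quintile of the tested genes (up to 1577 bases) the median log2 ratio of day 0 replicate 1 to replicate 2 was 0.18, and in the longest quintile (from 4707 bases) it was -0.11. The same medians for the drug replicates were -0.04 and 0.02. The median change from day 0 to the drugs went from -0.18 in the shortest quintile to 0.14 in the longest, and the numbers of genes called higher and lower went from 239 and 672 to 816 and 277. Vehicle against day 0 ran from -0.17 to 0.10, and the drugs against vehicle from -0.02 to 0.02. The part of this trend in single results was not tested beyond a second fit, added after seeing the data, in which a length curve per library was removed.

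**Figure D1:**
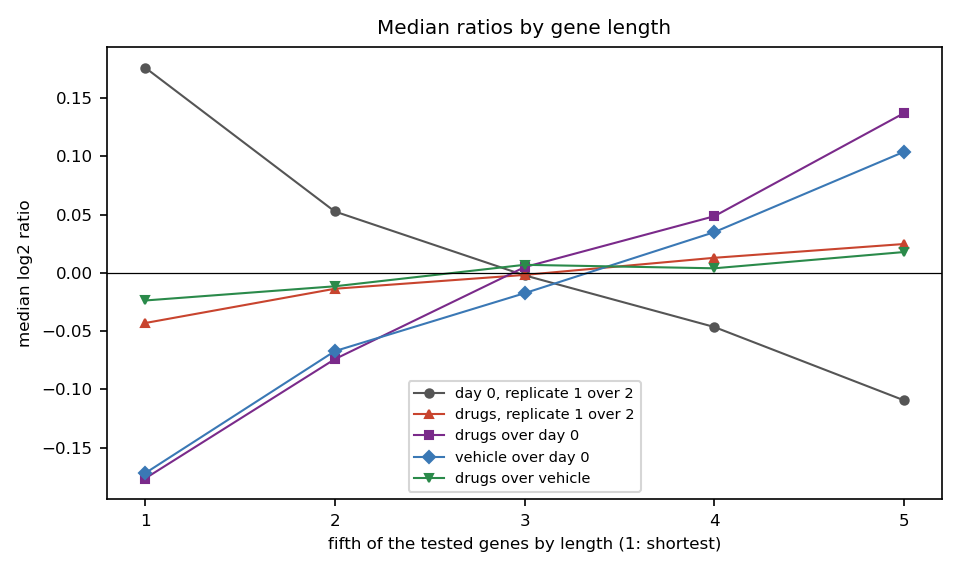
Median log2 ratio of tested genes (vertical axis) in quintiles by gene length (horizontal axis), for replicates within day 0 and within the drugs and for the 3 group contrasts. The day 0 replicates and both contrasts with day 0 slope with length, between 0.18 and -0.18, whereas the drugs against vehicle stay within 0.02 of 0.

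After 3 days with the drugs 2564 genes were higher than at day 0 (22.7% of those tested) and 2394 were lower (21.2%), together 43.9%, at an adjusted p under 0.05 in edgeR's quasi-likelihood test. More genes rose than fell by over 2-fold, 680 against 236. At day 0, 219 of those 680 averaged under 1 CPM (counts relative to the scaled library total), and 10 of them had no count at all. With the drugs, 65 of the 236 averaged under 1 CPM. Nearly all called genes had drug and day 0 replicates that did not overlap, but so did genes not called, such as Tpmt, Myc and Mki67. The share without overlap over all tested genes was not counted. The share of called genes that were higher was 51.7%, and it was 70.4% when libraries were scaled by their totals alone. The length fit called 2779 genes higher and 2782 lower and kept 90.1% of the calls. Leaving out drug replicate 1 gave 1659 and 1199, and leaving out drug replicate 2 gave 1781 and 1464. Along the first principal component, which held 75.3% of the variance, drug cultures lay at 36.7 and 35.4 and the other 4 between -21.2 and -14.6.

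**Figure D2:**
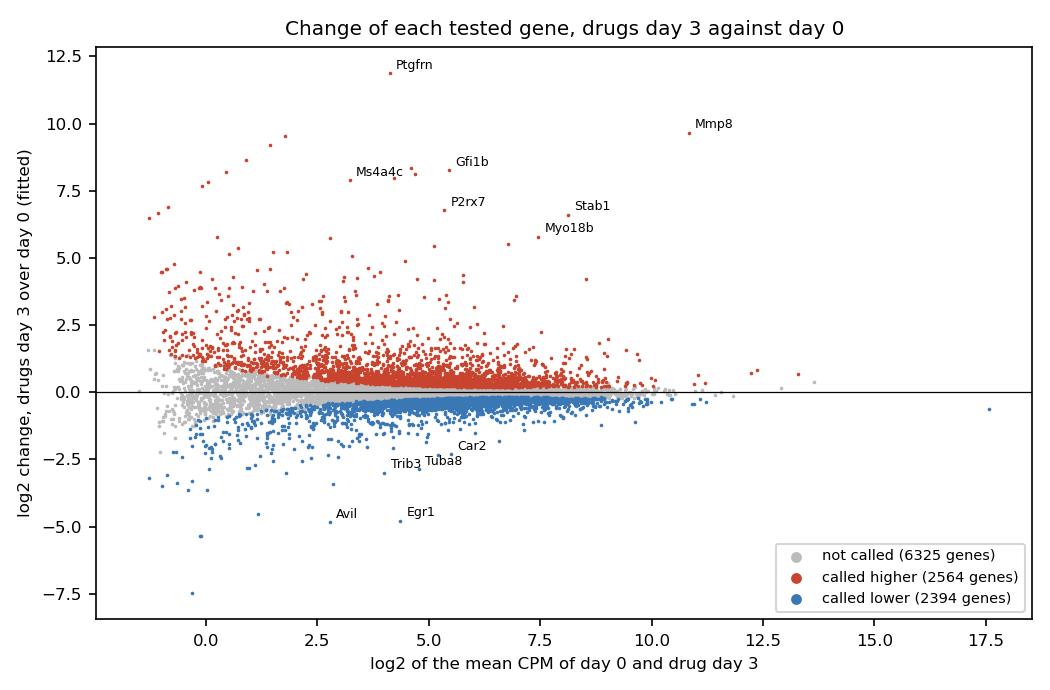
Fitted log2 change of each tested gene from day 0 to the drugs (vertical axis) against the log2 of its mean CPM in those groups (horizontal axis). Red and blue points are the 2564 genes called higher and the 2394 called lower, and names mark leading genes. The fitted value of a gene with no count at day 0, such as Ptgfrn, is not a bound.

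Most of the largest rises were of genes under 1 CPM at day 0, while Mmp8, Stab1 and Myo18b averaged 4.54, 5.70 and 6.17 CPM there. Genes were ranked by log2 change. Only called genes counted, without overlap between drug and day 0 replicates and with a mean of 10 CPM or more in the higher group. The 10 leading rises were Ptgfrn, Mmp8, Siglece, Gfi1b, Mgst1, Ctss, Ms4a4c, P2rx7, Stab1 and Myo18b. Of the 10 leading falls, 9 are described: Avil, Egr1, Trib3, Tuba8, Cox6a2, Prg2, Rtn4rl2, Car2 and Myh7b. The 250 bases upstream of the annotated start are shown for 4 of the rises and for Avil, the leading fall, so that the letters beside genes with the largest changes can be read. They are from RefSeq, build GRCm38.p6, 5′ to 3′ along the gene. Ptgfrn lies at chr3:101110167-101110416 on the minus strand, Mmp8 at chr9:7558179-7558428 on the plus strand, Siglece at chr7:43660162-43660411 on the minus strand, Gfi1b at chr2:28621983-28622232 on the minus strand and Avil at chr10:127000459-127000708 on the plus strand. Capitals mark matches, on either strand, to 9 motifs: GAGGAAG (PU.1), AAATCA (GFI1 and GFI1B), TTNCNNAA (C/EBP), TGANTCA (AP-1), AAANNGAAA (interferon regulatory factors), GGGANTTTC (NF-kB), CACGTG (MYC family), TTCCCGC (E2F) and TGATGNAA (ATF4 with C/EBP).
Ptgfrn: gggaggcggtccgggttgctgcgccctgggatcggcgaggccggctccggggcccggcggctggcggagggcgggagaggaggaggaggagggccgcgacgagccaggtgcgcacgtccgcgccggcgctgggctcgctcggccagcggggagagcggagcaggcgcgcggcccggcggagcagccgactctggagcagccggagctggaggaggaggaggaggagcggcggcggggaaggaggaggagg
Mmp8: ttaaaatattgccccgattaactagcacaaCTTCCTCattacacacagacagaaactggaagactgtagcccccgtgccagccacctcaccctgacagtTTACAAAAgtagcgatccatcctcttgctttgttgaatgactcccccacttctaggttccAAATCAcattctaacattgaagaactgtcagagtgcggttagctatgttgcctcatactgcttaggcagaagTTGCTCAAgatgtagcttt
Siglece: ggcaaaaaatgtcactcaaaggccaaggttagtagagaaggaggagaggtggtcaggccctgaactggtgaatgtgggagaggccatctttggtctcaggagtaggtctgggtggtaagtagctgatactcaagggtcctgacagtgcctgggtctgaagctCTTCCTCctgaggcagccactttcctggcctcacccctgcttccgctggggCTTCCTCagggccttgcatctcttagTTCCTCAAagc
Gfi1b: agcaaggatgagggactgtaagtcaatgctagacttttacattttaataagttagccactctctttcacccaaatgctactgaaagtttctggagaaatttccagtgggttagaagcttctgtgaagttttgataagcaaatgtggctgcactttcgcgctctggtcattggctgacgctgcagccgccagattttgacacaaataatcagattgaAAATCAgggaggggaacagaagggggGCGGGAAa
Avil: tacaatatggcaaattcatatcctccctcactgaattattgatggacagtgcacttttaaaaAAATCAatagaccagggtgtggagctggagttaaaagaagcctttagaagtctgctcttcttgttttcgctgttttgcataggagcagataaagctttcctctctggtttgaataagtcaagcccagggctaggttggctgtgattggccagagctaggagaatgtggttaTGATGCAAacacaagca
Upstream of Mmp8 these letters hold 1 match for PU.1, 1 for GFI1 and 2 for C/EBP, and upstream of Siglece 2 for PU.1 and 1 for C/EBP. The Gfi1b window has AAATCA from -34 to -29, counted from the start site, and an E2F match. The Ptgfrn window has none of the 9 motifs. Matches to different motifs may overlap and were counted for each. A match is a description of the letters, and a window without one says nothing of the factor.

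Over the 8063 tested genes with a promoter entry, 7.25% of these 250-base windows held AAATCA, against 10.7% of the 488 windows of genes that rose by over 2-fold and 13.5% of the 163 of genes that fell by over 2-fold. GAGGAAG was in 11.3%, 14.8% and 13.5% of the same sets. The interferon regulatory letters AAANNGAAA stood in 7.01%, 12.9% and 7.97%. For TTNCNNAA the shares were 27.8%, 31.1% and 35.6%. The AP-1 letters TGANTCA were in 4.19%, 7.58% and 11.7%, and TGATGNAA in 1.96%, 2.25% and 4.91%. CACGTG was in 8.72%, 6.76% and 7.36%, TTCCCGC in 7.49%, 5.53% and 5.52%, and GGGANTTTC in 0.843%, 1.23% and 0%. These shares describe letters, not sites in use, and were not tested.

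Mmp8, which encodes neutrophil collagenase, a protein of the secondary granules, had the largest rise among the leading genes with counts at day 0. It lies at chr9:7558429-7568486 on mm10, and its level was 4.01 and 5.07 CPM at day 0, 7.90 and 12.8 CPM with vehicle and 3484 and 3799.9 CPM with the drugs. Both drug cultures stood far above every other culture, with a log2 change of 9.67 ± 0.19 (SE; adjusted p = 1.71e-12). Vehicle against day 0 gave a smaller log2 change of 1.20 (adjusted p = 0.00692). Per length, Mmp8 came to 4749 ± 246 TPM with the drugs, beside 8461 ± 309 TPM of Mpo in the same cultures. Ptgfrn, a regulator of the prostaglandin F2-alpha receptor, had no count in any day 0 or vehicle culture and 437 and 536 counts with the drugs. Against a floor of 3 counts over the 2 day 0 cultures it was at least 333-fold higher (adjusted p = 1.32e-09).

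Gfi1b, whose protein is one of the repressors that recruit LSD1, was at 0.299 and 0.249 CPM at day 0, 0.0790 and 0 CPM with vehicle and 88.4 and 87.3 CPM with the drugs. The drug cultures stood apart from all others, with a log2 change of 8.26 ± 0.18 (SE; adjusted p = 4.48e-12), and Gfi1b lies at chr2:28609450-28621982 on mm10. Siglece, an inhibitory sialic acid receptor of myeloid cells, was at 0.120 and 0.166 CPM at day 0, 0.395 and 0.334 CPM with vehicle and 48.2 and 48.1 CPM with the drugs, with a log2 change of 8.34 ± 0.21 (SE; adjusted p = 1.63e-11). Cathepsin S, a protease of lysosomes encoded by Ctss, had 0.179 and 0.0831 CPM at day 0 and 35.7 and 38.8 CPM with the drugs, with a log2 change of 7.98 ± 0.29 (SE; adjusted p = 4.02e-10). Stab1, a scavenger receptor of macrophages, was at 5.32 and 6.07 CPM at day 0, 3.87 and 4.43 CPM with vehicle and 567 and 539 CPM with the drugs. Its log2 change of 6.61 ± 0.10 (SE) had an adjusted p of 2.73e-13, and neither drug culture came near the range of the others.

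For Ms4a4c, a membrane protein of myeloid and lymphoid cells, the 2 day 0 cultures held 1 count each, and the drug cultures 235 and 287. The ratio was 268, with an exact 95% binomial interval from 73.9 to 2220.2 that covers counting error only. Mgst1, a microsomal glutathione transferase, was at 0.239 and 0.0831 CPM at day 0 and 50.9 and 51.8 CPM with the drugs (log2 change 8.13, adjusted p = 2.64e-11). P2rx7, an ATP-gated channel of macrophages, was at 0.897 and 0.499 CPM at day 0 and 83.1 and 78.03 CPM with the drugs (log2 change 6.77, adjusted p = 5.24e-11). Myo18b, an unconventional myosin of muscle, was at 6.52 and 5.82 CPM at day 0, 12.1 and 8.11 CPM with vehicle and 349 and 340.3 CPM with the drugs (log2 change 5.79, adjusted p = 4.51e-12). Lack of overlap between drug and day 0 replicates was a condition for choosing the 10 leading rises, so it is no further result. All 10 had log2 changes above 0 in each of 14 other fits.

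The leading falls were smaller and began from low to moderate levels. Avil, which encodes the actin-binding protein advillin, was at 16.9 and 9.72 CPM at day 0, 2.53 and 2.59 CPM with vehicle and 0.400 and 0.516 CPM with the drugs. It fell by 4.84 ± 0.37 on the log2 scale (adjusted p = 4.46e-07), and the vehicle cultures lay between the other two groups. Egr1, an immediate early transcription factor, was at 38.9 and 40.2 CPM at day 0, 1.98 and 0.836 CPM with vehicle and 1.60 and 1.29 CPM with the drugs. Both day 3 groups were low: the log2 change was -4.78 ± 0.20 with the drugs and -4.79 (adjusted p = 7.74e-08) with vehicle, and the drugs against vehicle gave 0.01 (adjusted p = 0.986). Trib3, a pseudokinase gene switched on by amino acid and secretory stress, was at 34.8 and 22.0 CPM at day 0, 9.49 and 9.70 CPM with vehicle and 4.00 and 3.29 CPM with the drugs, in the same order of groups as Avil. It had a log2 change of -2.99 ± 0.22 (SE; adjusted p = 3.63e-07).

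Tuba8, an alpha tubulin, fell with the drugs from 47.5 and 48.6 CPM to 6.89 and 6.26 CPM (log2 change -2.87, adjusted p = 4.81e-10). Cox6a2, a cytochrome oxidase subunit of muscle, had 16.2 and 9.97 CPM at day 0 and 2.64 and 2.39 CPM with the drugs (log2 change -2.41, adjusted p = 8.73e-06). Prg2, the major basic protein of eosinophils, was at 70.1 and 52.4 CPM at day 0, 43.7 and 52.3 CPM with vehicle and 13.1 and 11.4 CPM with the drugs, lowest in both drug cultures (log2 change -2.34, adjusted p = 8.26e-08). Car2, carbonic anhydrase 2, was at 78.3 and 73.0 CPM at day 0, 66.1 and 70.9 CPM with vehicle and 16.7 and 13.9 CPM with the drugs, so that vehicle and day 0 lay close together (log2 change with the drugs -2.31, adjusted p = 1.80e-09). Rtn4rl2, a Nogo receptor relative, and Myh7b, a myosin heavy chain, fell by 2.33 and 2.06 on the log2 scale. Myh7b overlaps a neighbouring gene in the annotation, so its counts are uncertain. Cox6a2, Prg2, Rtn4rl2 and Tuba8 are short genes, of 659, 838, 1263 and 1432 bases. The day 0 replicates differed for genes of that length as described above.

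**Figure D3:**
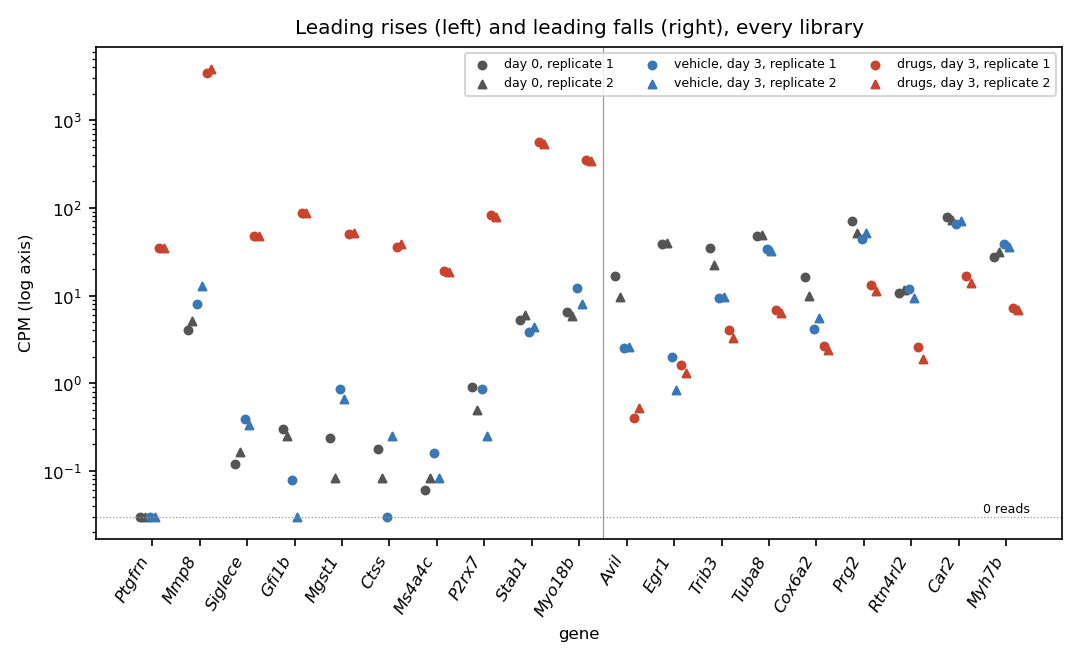
CPM of the 10 leading rises and 9 of the leading falls (horizontal axis) in each of the 6 libraries on a log axis, with circles for replicate 1 and triangles for replicate 2. Points on the dotted line had 0 reads. Drug cultures of the rises stand apart from day 0 and vehicle, and Egr1 is low in vehicle and drug cultures alike.

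Genes of the secondary and gelatinase granules rose with the drugs, against a background of 22.7% called higher. Of the 8 that could be tested, 7 rose and 1 fell, with a median log2 change of 2.32, against -0.01 over all tested genes. Mmp9, with at most 4 counts in any day 0 or vehicle culture, passed the count filter only through the drug cultures. Such a member can enter only as higher, which tilts the count toward rises. Chi3l3, a chitinase-like protein (also called Chil3), was at 2.39 and 3.08 CPM at day 0, 4.74 and 7.19 CPM with vehicle and 48.3 and 52.7 CPM with the drugs, with a log2 change of 4.23 ± 0.17 (SE; adjusted p = 1.15e-09). Mmp9, gelatinase B, was at 0.239 and 0.166 CPM at day 0 and 5.61 and 4.78 CPM with the drugs, low in absolute level but with a log2 change of 4.57 ± 0.36 (SE; adjusted p = 6.55e-07). Hp (haptoglobin), Anxa1 (annexin A1), Lcn2 (lipocalin 2) and Pglyrp1 (a peptidoglycan receptor) rose by log2 changes of 3.05, 1.60, 0.51 and 0.35. Adam8, a membrane metalloprotease, fell by 1.23 on the log2 scale. The other 6 genes of the list were not tested, because too few reads were counted. Over the 4 cultures, Ltf (lactoferrin) had 2 counts, Ngp (neutrophilic granule protein) 1, and Camp (cathelicidin) and Olfm4 (olfactomedin 4) 0. Without day 0 replicate 2, 5 of the 8 rose. The day 0 replicates differed by a median log2 ratio of 0.11 over these genes.

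Primary granule genes moved both ways, and 72.7% of those tested were called, against 43.9% of all tested genes. Of 11 tested members 5 rose and 3 fell, with a median log2 change of 0.11, which was 0.21 without day 0 replicate 1 and 0.0019 without day 0 replicate 2. Mpo was at 3495 and 4027 CPM at day 0, 4647 and 4646 CPM with vehicle and 6517 and 6954 CPM with the drugs, with a log2 change of 0.84 ± 0.10 (SE; adjusted p = 4.03e-05). Elane, neutrophil elastase, was at 10.1 and 10.5 CPM at day 0, 27.0 and 39.7 CPM with vehicle and 37.1 and 35.2 CPM with the drugs. It was higher in both day 3 groups than at day 0: the log2 changes were 1.81 with the drugs (adjusted p = 1.74e-06) and 1.69 (adjusted p = 6.28e-05) with vehicle, and the drugs against vehicle gave 0.12 (adjusted p = 0.555). Prss57, a serine protease related to elastase, was at 13.7 and 12.97 CPM at day 0, 20.9 and 26.2 CPM with vehicle and 31.9 and 34.9 CPM with the drugs (log2 change with the drugs 1.32, adjusted p = 2.41e-06). Nkg7, a granule membrane protein also found in killer lymphocytes, rose by a log2 change of 2.04. Ctsg, cathepsin G, fell by 0.50 on the log2 scale, and Prtn3, proteinase 3, had a log2 change of -0.08 (adjusted p = 0.632).

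Among mature neutrophil genes, of 14 tested members 8 rose and 2 fell (median log2 change 0.33). Together 71.4% were called, against 43.9% of all tested genes. Hdc, histidine decarboxylase, which basophils and mast cells also make, was at 11.1 and 12.3 CPM at day 0, 10.2 and 11.3 CPM with vehicle and 79.2 and 74.9 CPM with the drugs, with a log2 change of 2.73 ± 0.10 (SE; adjusted p = 3.34e-10). Of the 24 genes listed, 10 were not tested. S100a9, an abundant calcium-binding protein of mature neutrophils, had 3 and 0 counts at day 0 and 2 and 6 with the drugs. Without day 0 replicate 2 the counts were 4 higher and 3 lower, and without drug replicate 2 there were 5 higher. Of the 7 tested subunits and partners of the NADPH oxidase, which makes superoxide in phagocytes, 3 rose and 1 fell. Together that is 57.1%, against 43.9% of all tested genes. Hvcn1, its proton channel, rose from 41.8 and 34.1 CPM to 78.7 and 74.0 CPM (log2 change 0.998, adjusted p = 2.87e-06). Cybb, the catalytic subunit, had 0.179 and 0.166 CPM at day 0 and 1.36 and 2.32 CPM with the drugs. It passed the count filter only through the drug cultures and could enter only as higher.

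Most tested monocyte and macrophage genes rose, against a background of 22.7% called higher. Of 19 tested members 13 rose and 3 fell, with a median log2 change of 1.31, against -0.18 for vehicle over day 0 in the same genes. Ctss and Ms4a4c, with at most 3 counts in any other culture, passed the count filter only through the drug cultures. Such members can enter only as higher, so the counts and the median lean toward rises. Besides Ctss, Ms4a4c and Stab1, Ms4a6c, a membrane protein of monocytes, was at 5.15 and 4.07 CPM at day 0, 3.79 and 3.85 CPM with vehicle and 207 and 225 CPM with the drugs, with a log2 change of 5.53 ± 0.11 (SE; adjusted p = 1.71e-12). Csf1r, the receptor for macrophage colony-stimulating factor, was at 1.38 and 1.33 CPM at day 0, 1.58 and 1.92 CPM with vehicle and 15.3 and 16.3 CPM with the drugs, with a log2 change of 3.53 ± 0.18 (SE; adjusted p = 1.46e-08). Ly6c2, a marker of inflammatory monocytes, rose by a log2 change of 3.61, Fn1 (fibronectin) by 2.69 and Mpeg1 (a pore-forming protein of macrophages) by 1.67. Emr1, the gene of the macrophage antigen F4/80, rose by 1.31. Cx3cr1, the fractalkine receptor, had a log2 change of -1.497, a call lost without day 0 replicate 1 or drug replicate 2, and Cd63 and F13a1 fell by 0.53 and 0.23. Lyz2, lysozyme, and the complement genes C1qa, C1qb and C1qc had no count in any day 0 or drug culture. Lyz2 has a close copy, Lyz1, so its lack of counts is uncertain.

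Most tested myeloid surface receptors rose as well, against the same background of 22.7% called higher. Of 22 tested members 15 rose and 2 fell (median log2 change 0.82). Siglece and Tlr7 passed the count filter only through the drug cultures and could enter only as higher, which tilts the count toward rises. Clec12a, an inhibitory lectin of myeloid cells, was at 78.2 and 70.9 CPM at day 0, 64.7 and 76.4 CPM with vehicle and 222 and 233 CPM with the drugs, with a log2 change of 1.61 ± 0.09 (SE; adjusted p = 1.67e-08). Itgam, the integrin CD11b that marks mature myeloid cells, was at 13.6 and 12.3 CPM at day 0, 11.8 and 15.2 CPM with vehicle and 31.2 and 27.9 CPM with the drugs, with a log2 change of 1.18 ± 0.13 (SE; adjusted p = 1.21e-05). Tlr7, a sensor of single-stranded RNA, had 2 counts over the day 0 cultures and 34 over the drug cultures, a ratio of 17.5 (exact 95% binomial interval 4.48 to 150.1). Cd33, Fcgr4 (an activating antibody receptor), Tlr4 (the endotoxin receptor) and Tyrobp (an adaptor of activating receptors) rose by log2 changes of 1.34, 2.19, 0.84 and 0.86. Itgax, the integrin CD11c, fell from 8.14 and 6.81 CPM to 3.36 and 2.65 CPM.

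**Figure D4:**
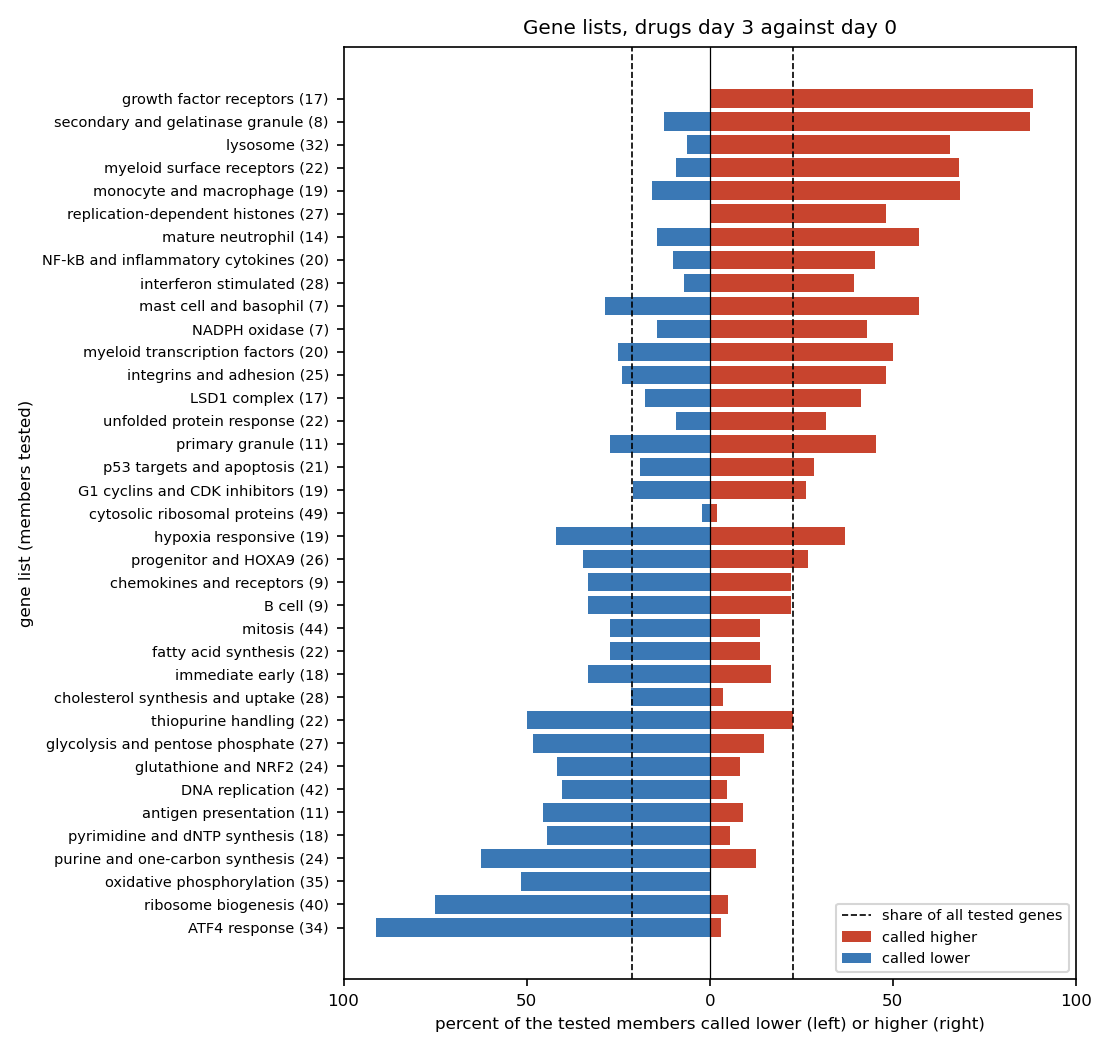
Percent of the tested members of each gene list that were called higher (right, red) or lower (left, blue) with the drugs than at day 0, for lists with at least 7 tested members (number in brackets). Dashed lines mark all tested genes, at 22.7% higher and 21.2% lower. Growth factor receptors and secondary granule genes lie at the top, and ribosome biogenesis and ATF4 response genes at the bottom.

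Of the myeloid transcription factors, 10 of 20 rose and 5 fell, together 75% against 43.9% of all tested genes. Gfi1b, on this list, passed the count filter only through the drug cultures and could enter only as higher. Cebpe, which drives the late granule genes, was at 19.5 and 19.4 CPM at day 0, 29.8 and 30.0 CPM with vehicle and 72.3 and 66.3 CPM with the drugs, with a log2 change of 1.83 ± 0.09 (SE; adjusted p = 4.45e-09). Irf8, a factor of monocytes and dendritic cells, was at 6.04 and 7.56 CPM at day 0, 6.24 and 6.35 CPM with vehicle and 28.3 and 32.7 CPM with the drugs, with a log2 change of 2.18 ± 0.14 (SE; adjusted p = 6.97e-08). Sfpi1, the gene of PU.1, was at 56.9 and 55.8 CPM at day 0, 59.3 and 65.0 CPM with vehicle and 79.6 and 77.3 CPM with the drugs, a smaller rise with a log2 change of 0.48, adjusted p = 2.34e-04. Cebpa, the factor that opens the granulocyte-monocyte path, was at 162 and 159 CPM at day 0, 179.8 and 175 CPM with vehicle and 137 and 137 CPM with the drugs (log2 change -0.23, adjusted p = 0.0142), a call lost without either drug culture and under total-count scaling. Cebpb and Irf5 fell by 0.60 and 0.82 on the log2 scale. Without day 0 replicate 1 or either drug culture, 2 factors were lower.

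The target of GSK-LSD1 itself did not pass the test at the RNA level. Kdm1a was at 62.0 and 64.2 CPM at day 0, 65.1 and 63.2 CPM with vehicle and 56.1 and 62.3 CPM with the drugs, with overlapping groups and a log2 change of -0.09 ± 0.08 (adjusted p = 0.368). Among 17 tested genes of LSD1 complexes, which include Gfi1 and Gfi1b, 7 rose and 3 fell. Together 58.8% were called, against 43.9% of all tested genes. Gfi1b passed the count filter only through the drug cultures and could enter only as higher. Gfi1, the paralog of Gfi1b, was at 266 and 253 CPM at day 0, 248 and 281 CPM with vehicle and 728 and 711 CPM with the drugs, with a log2 change of 1.47 ± 0.08 (SE; adjusted p = 2.62e-08). Per length, Gfi1 remained above Gfi1b with the drugs, at 804 ± 21.4 against 154 ± 2.91 TPM. Rcor2, a corepressor that bridges LSD1 to chromatin, fell by 0.79, and the deacetylases Hdac1 and Hdac2 fell by 0.29 and 0.24. Without day 0 replicate 1 or either drug culture, 4 of the 17 rose.

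Progenitor genes and genes of the HOXA9 program were split. Of 26 tested members 7 rose and 9 fell, 61.5% against 43.9% of all tested genes, with a median log2 change of 0.05. That median was -0.01 without day 0 replicate 1, 0.09 without day 0 replicate 2, 0.02 without drug replicate 1 and 0.14 under total-count scaling. Hoxa9 was at 292 and 286 CPM at day 0, 288 and 275 CPM with vehicle and 192 and 193 CPM with the drugs, lower in both drug cultures than in the other 4, with a log2 change of -0.58 ± 0.07 (SE; adjusted p = 2.80e-05). Reads of the fusion and of the cell's own gene were not separated here. Meis1, a HOXA9 partner, was at 49.4 and 48.2 CPM at day 0, 39.1 and 36.0 CPM with vehicle and 35.0 and 35.6 CPM with the drugs, low with vehicle as well (log2 change with the drugs -0.47, adjusted p = 5.27e-04). Mycn, a MYC family member, had 8.79 and 8.56 CPM at day 0, 9.01 and 8.78 CPM with vehicle and 1.68 and 1.48 CPM with the drugs, and fell by 2.46 ± 0.19 on the log2 scale (adjusted p = 6.55e-07). Flt3, a cytokine receptor of progenitors and dendritic cells, was at 211 and 211 CPM at day 0, 283 and 283 CPM with vehicle and 518 and 536 CPM with the drugs, with a log2 change of 1.32 ± 0.07 (SE; adjusted p = 1.88e-08). Satb1, a chromatin organiser, was at 33.6 and 31.5 CPM at day 0, 26.9 and 23.0 CPM with vehicle and 82.8 and 85.7 CPM with the drugs (log2 change 1.37, adjusted p = 6.97e-08), and Kit was at 876 and 961 CPM at day 0, 1018 and 958 CPM with vehicle and 1255 and 1233 CPM with the drugs (log2 change 0.44, adjusted p = 0.00105). Myc was at 264 and 295 CPM at day 0 and 307 and 303 CPM with the drugs (log2 change 0.13, adjusted p = 0.209), and Cd34 had a log2 change of 0.07 (adjusted p = 0.521).

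Receptors for growth factors and cytokines rose with few exceptions. Of 17 tested members 15 rose and none fell, 88.2% higher against 22.7% of all tested genes, with a median log2 change of 0.55. The counts in the other fits were 13 to 15 higher and 0 to 2 lower. Il6st, the shared signalling chain of the interleukin 6 family, was at 6.10 and 6.32 CPM at day 0, 9.96 and 6.44 CPM with vehicle and 68.7 and 68.7 CPM with the drugs, with a log2 change of 3.47 ± 0.14 (SE; adjusted p = 1.22e-09). Csf3r, the receptor for granulocyte colony-stimulating factor, rose by a log2 change of 0.26. The receptor chains for interleukin 3 and GM-CSF, Il3ra, Csf2rb, Csf2rb2 and Csf2ra, rose by 1.16, 0.56, 0.55 and 0.51. Csf2rb and Csf2rb2 are near-identical copies, so their counts are uncertain. Interferon gamma receptor chains Ifngr1 and Ifngr2 rose by 0.64 and 1.65. Il1r1, an interleukin 1 receptor, and Tnfrsf1b, a tumour necrosis factor receptor, had log2 changes of -0.72, adjusted p = 0.0615, and -0.19, adjusted p = 0.105.

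Inflammatory genes changed in part. Of the tested NF-kB and cytokine list 55.0% were called, and of the interferon-stimulated list 46.4%. Over all tested genes 43.9% were called, 22.7% higher and 21.2% lower. In the NF-kB and cytokine list of 20 tested members 9 rose and 2 fell (median log2 change 0.29, and 0.18 without day 0 replicate 2). Nlrp3, an inflammasome sensor, was at 4.37 and 4.99 CPM at day 0, 1.502 and 2.17 CPM with vehicle and 52.5 and 57.1 CPM with the drugs, so vehicle cultures were lowest and drug cultures highest. It had a log2 change of 3.56 ± 0.13 (SE; adjusted p = 4.12e-10), beside -1.34 (adjusted p = 0.00351) for vehicle over day 0. Ptgs2, cyclooxygenase 2, was at 8.26 and 6.98 CPM at day 0, 2.77 and 3.26 CPM with vehicle and 1.44 and 1.16 CPM with the drugs, and fell by 2.57 on the log2 scale (adjusted p = 1.93e-06). Among 28 interferon-stimulated genes 11 rose and 2 fell, and 6 rose without drug replicate 1. Ifi204, a DNA sensor of the p200 family, was at 0.419 and 0.416 CPM at day 0 and 6.49 and 6.07 CPM with the drugs, with a log2 change of 3.88 ± 0.32 (SE; adjusted p = 1.04e-06), and its relatives Mndal and Ifi203 rose by 1.52 and 1.73. These 3 are neighbouring paralogs, so their counts are uncertain. Ifi204, and Il18 on the NF-kB and cytokine list, passed the count filter only through the drug cultures and could enter only as higher. Ifitm3, a membrane protein that blocks virus entry, fell by 1.21 on the log2 scale. Isg15 had at most 4 counts in any day 0 or drug culture.

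Chemokine genes were mostly low. Of 22 listed 9 were tested, and 2 rose and 3 fell, together 55.6% against 43.9% of all tested genes. Ccl3, a macrophage chemokine, was at 5.50 and 4.90 CPM at day 0, 2.06 and 1.67 CPM with vehicle and 11.8 and 9.23 CPM with the drugs, again lowest with vehicle and highest with the drugs (log2 change 0.99, adjusted p = 5.79e-04). Cxcr4, the receptor that keeps cells in the marrow, was at 35.4 and 31.2 CPM at day 0, 42.1 and 44.3 CPM with vehicle and 64.6 and 66.9 CPM with the drugs (log2 change 0.98, adjusted p = 1.44e-06). Ccl9 was at 529 and 467 CPM at day 0, 387 and 435 CPM with vehicle and 308 and 329 CPM with the drugs (log2 change -0.64, adjusted p = 8.87e-05). Antigen presentation genes went down in part, with 5 of 11 lower and 1 higher. Together 54.5% were called, against 43.9% of all tested genes (22.7% higher and 21.2% lower). Nlrc5, the activator of class I genes, was at 121 and 117 CPM at day 0, 114 and 114 CPM with vehicle and 72.4 and 74.9 CPM with the drugs (log2 change -0.69, adjusted p = 3.70e-06). With the length trend removed 3 were lower and 2 higher, and 3 were lower without day 0 replicate 1 or either drug culture.

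Many lysosomal genes rose. Of 32 tested members 21 rose and 2 fell, with a median log2 change of 0.38, against -0.06 with vehicle. Together 71.9% were called, against 43.9% of all tested genes. Without drug replicate 1 there were 15 higher, and without drug replicate 2 there were 16. Psap, the precursor of the saposins that help degrade sphingolipids, was at 226 and 219 CPM at day 0, 218 and 233 CPM with vehicle and 509 and 542 CPM with the drugs, with a log2 change of 1.24 ± 0.08 (SE; adjusted p = 5.66e-08). Lipa, lysosomal acid lipase, was at 27.9 and 24.5 CPM at day 0, 28.6 and 28.6 CPM with vehicle and 64.8 and 65.2 CPM with the drugs, with a log2 change of 1.30 ± 0.08 (SE; adjusted p = 1.06e-07). Cd68, a macrophage lysosomal protein, was at 4.07 and 4.07 CPM at day 0, 3.87 and 2.76 CPM with vehicle and 9.53 and 10.5 CPM with the drugs (log2 change 1.30, adjusted p = 7.35e-05). The proteases Ctsl, Ctsb, Ctsz and Ctsa rose by log2 changes of 0.56, 0.45, 0.42 and 0.31, and Ctsd fell by 0.29. In the adhesion list 12 of 25 members rose and 6 fell, and 3 fell without drug replicate 1. Itgb5, an integrin beta chain, was at 30.3 and 29.2 CPM at day 0, 40.6 and 37.3 CPM with vehicle and 104 and 107 CPM with the drugs (log2 change 1.83, adjusted p = 1.80e-09), and Itga1, an alpha chain that binds collagen, was at 0.179 and 0.748 CPM at day 0 and 9.29 and 8.71 CPM with the drugs (log2 change 4.39, adjusted p = 4.32e-07). Itga2b, the platelet integrin, was at 37.3 and 28.0 CPM at day 0, 11.9 and 15.3 CPM with vehicle and 16.7 and 12.6 CPM with the drugs, lower in both day 3 groups than at day 0. Of the adhesion list 72% was called, against 43.9% of all tested genes. Itga1 passed the count filter only through the drug cultures and could enter only as higher.

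The response controlled by ATF4, which supplies amino acids, transfer RNA synthetases and one-carbon units under nutrient stress, fell almost throughout. Of 34 tested members 31 were lower with the drugs than at day 0 and 1 was higher, against a background of 21.2% lower, with a median log2 change of -0.66. The other fits gave 28 to 31 lower. Atf4 itself was at 255 and 191 CPM at day 0, 130.3 and 141 CPM with vehicle and 98.4 and 107 CPM with the drugs, with a log2 change of -1.12 ± 0.11 (SE; adjusted p = 5.63e-06). In vehicle against day 0, where 7.74% of all genes were called, 16 of the 34 were lower and none higher, and the median was -0.30. In the drugs against vehicle, where 31.9% were called, 22 were lower and 1 higher, with a median of -0.39. These contrasts share libraries, so the values are only set side by side.

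Chac1, a glutathione-degrading enzyme, was at 2.27 and 2.33 CPM at day 0, 1.502 and 1.17 CPM with vehicle and 0.641 and 0.452 CPM with the drugs, with a log2 change of -2.08 ± 0.35 (SE; adjusted p = 4.31e-04). Asns, asparagine synthetase, was at 84.4 and 65.7 CPM at day 0, 60.4 and 52.1 CPM with vehicle and 30.5 and 27.9 CPM with the drugs, falling in order from day 0 through vehicle to the drugs, with a log2 change of -1.37 ± 0.12 (SE; adjusted p = 1.50e-06). Wars, the tryptophan synthetase of transfer RNA, was at 152 and 135 CPM at day 0, 110.4 and 106 CPM with vehicle and 63.0 and 69.2 CPM with the drugs, with a log2 change of -1.12 ± 0.08 (SE; adjusted p = 2.75e-07). Ddit3, the stress factor CHOP, was at 79.3 and 58.3 CPM at day 0, 37.5 and 37.0 CPM with vehicle and 33.2 and 35.2 CPM with the drugs, low in both day 3 groups (log2 change with the drugs -1.02, adjusted p = 2.59e-05). Slc38a2, an amino acid transporter, was the member that rose (log2 change 0.35, adjusted p = 0.00179), and Vldlr and Pycr1 were not called. Of the other synthetases listed, Aars, Cars, Gars, Sars, Lars, Nars, Iars, Eprs and Mars fell by 0.32 to 0.83 on the log2 scale.

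**Figure D5:**
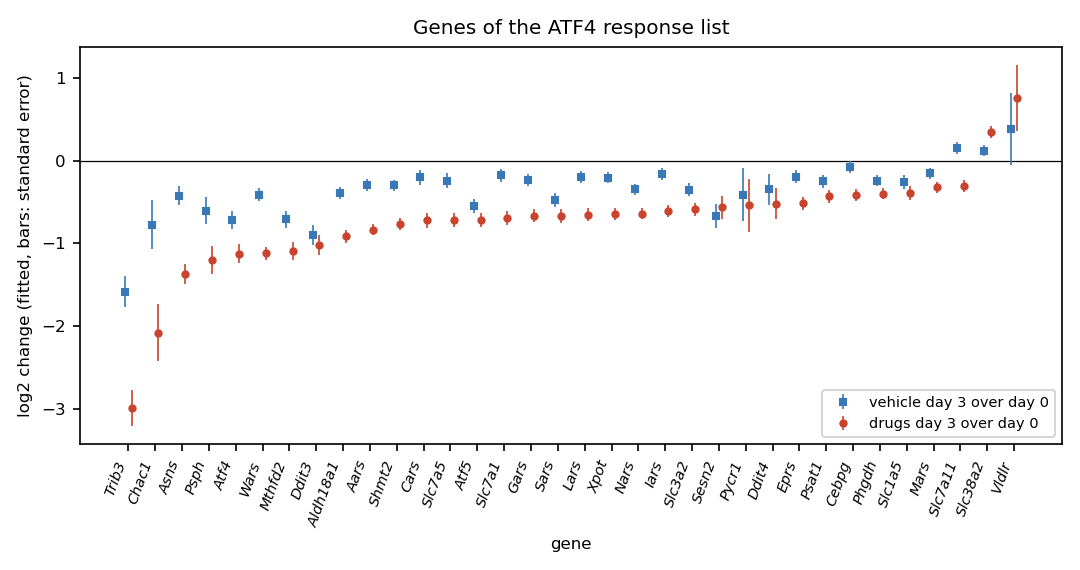
Fitted log2 change over day 0 of the 34 tested genes of the ATF4 list with vehicle (squares) and with the drugs (circles), with standard errors as bars. Most genes lie below 0 in both and lower with the drugs, from Trib3 at -2.99 to Slc38a2 at 0.35, and Vldlr has the widest bar.

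Upstream windows of this list held the ATF4 letters TGATGNAA more often than windows of all genes, at 25.9% of 27 windows against 1.96% of 8063, as a description with no test. Because the list was made up of ATF4 response genes, this share says nothing of their change. Pycr1 and Vldlr, which were not called, have a match too. The windows of Asns (chr6:7693210-7693459, minus strand), Chac1 (chr2:119350992-119351241, plus strand) and Slc7a11 (chr3:50443614-50443863, minus strand), 3 of the 5 called members with a match, show where those letters stand, and were chosen after their values were seen. Capitals mark matches to any of the 9 motifs above.
Asns: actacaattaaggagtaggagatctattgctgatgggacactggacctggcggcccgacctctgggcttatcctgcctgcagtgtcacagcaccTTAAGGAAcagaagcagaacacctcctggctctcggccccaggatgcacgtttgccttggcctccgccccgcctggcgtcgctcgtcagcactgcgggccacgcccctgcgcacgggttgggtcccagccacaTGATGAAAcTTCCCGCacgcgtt
Chac1: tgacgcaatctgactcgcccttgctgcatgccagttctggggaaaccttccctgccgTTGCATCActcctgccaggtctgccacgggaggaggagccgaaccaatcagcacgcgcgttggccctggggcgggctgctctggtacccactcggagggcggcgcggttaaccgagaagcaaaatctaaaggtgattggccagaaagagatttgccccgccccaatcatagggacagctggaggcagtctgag
Slc7a11: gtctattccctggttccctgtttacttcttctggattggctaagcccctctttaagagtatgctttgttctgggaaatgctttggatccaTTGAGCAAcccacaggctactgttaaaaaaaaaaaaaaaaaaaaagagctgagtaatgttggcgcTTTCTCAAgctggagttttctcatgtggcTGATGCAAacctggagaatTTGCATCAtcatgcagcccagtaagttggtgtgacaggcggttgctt
The ATF4 letters stand from -23 to -16 in Asns, from -193 to -186 in Chac1, read on the other strand, and from -66 to -59 and -47 to -40 in Slc7a11, the cystine transporter. Slc7a11, with both matches, fell by 0.31 on the log2 scale, and Chac1, with one, by 2.08. Avil, shown earlier, has the same letters from -17 to -10, and Trib3 has none in its 250 bases.

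Many genes of purine synthesis, which mercaptopurine touches, and of one-carbon and serine metabolism fell, against a background of 21.2% called lower. In this list 15 of 24 fell, 11 without drug replicate 1, and 3 rose (median log2 change -0.31). Mthfd2, a mitochondrial folate enzyme, was at 84.1 and 66.1 CPM at day 0, 44.7 and 47.7 CPM with vehicle and 35.2 and 35.7 CPM with the drugs, with a log2 change of -1.09 ± 0.10 (SE; adjusted p = 3.89e-06). Shmt2, which feeds serine carbon into folate, was at 261 and 258 CPM at day 0, 214 and 208 CPM with vehicle and 149.6 and 155 CPM with the drugs, with a log2 change of -0.77 ± 0.07 (SE; adjusted p = 2.01e-06), and Psph, of serine synthesis, was at 31.1 and 20.6 CPM at day 0, 17.5 and 17.0 CPM with vehicle and 12.4 and 10.5 CPM with the drugs (log2 change -1.20, adjusted p = 1.25e-04). These 3, with Psat1 and Phgdh, are on the ATF4 list too. Of the enzymes of the purine ring itself, Ppat, Gart, Pfas and Adsl fell by 0.32, 0.39, 0.31 and 0.47 on the log2 scale, Atic rose by a log2 change of 0.43, and Paics was not called.

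Genes that handle thiopurines moved both ways, with 5 of 22 tested members higher and 11 lower, and 6 lower when either drug culture was left out. Total-count scaling gave 7 higher and 7 lower. Of these 22 genes 72.7% were called, against 43.9% of all tested genes. Xdh, xanthine dehydrogenase, which oxidises mercaptopurine and other purines, was at 6.04 and 6.57 CPM at day 0, 6.01 and 6.61 CPM with vehicle and 76.5 and 78.03 CPM with the drugs, with a log2 change of 3.62 ± 0.10 (SE; adjusted p = 4.64e-11). Slc28a2, a concentrative nucleoside transporter, was at 46.5 and 49.8 CPM at day 0, 48.3 and 48.7 CPM with vehicle and 13.4 and 13.04 CPM with the drugs, and fell by 1.86 ± 0.09 on the log2 scale (adjusted p = 7.04e-09). For vehicle over day 0 the log2 changes were 0.01 (adjusted p = 0.983) in Xdh and 0.01 (adjusted p = 0.936) in Slc28a2. Hprt, the salvage enzyme that activates the drug, was at 105 and 107 CPM at day 0, 102 and 93.5 CPM with vehicle and 88.3 and 93.9 CPM with the drugs (log2 change -0.21, adjusted p = 0.0273), a call lost in 7 of 14 other fits. Tpmt, which inactivates thiopurines, was at 0.838 and 0.914 CPM at day 0 and 1.44 and 1.55 CPM with the drugs (log2 change 0.78, adjusted p = 0.0747), not called. Among pyrimidine and deoxynucleotide genes 8 of 18 fell and 1 rose, together 50% against 43.9% of all tested genes (21.2% lower). Their median log2 change was -0.25, and -0.17 without drug replicate 1. Dut, which removes dUTP, was at 98.9 and 82.1 CPM at day 0, 77.2 and 88.7 CPM with vehicle and 55.0 and 55.5 CPM with the drugs (log2 change -0.72, adjusted p = 7.10e-05), and Umps, the last enzyme of UMP synthesis, at 139 and 122 CPM at day 0, 117 and 123 CPM with vehicle and 82.4 and 83.8 CPM with the drugs (log2 change -0.65, adjusted p = 2.75e-05).

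Lipid synthesis genes showed no surplus of calls over all genes. Fasn, the target of cerulenin, was at 533 and 656 CPM at day 0, 735 and 609 CPM with vehicle and 582 and 559.8 CPM with the drugs, with overlapping groups and a log2 change of -0.06 ± 0.11 (adjusted p = 0.693). It was called lower with the length trend removed, and its sign turned under total-count scaling and without day 0 replicate 2. Of 22 tested fatty acid genes 3 rose and 6 fell, together 40.9% against 43.9% of all tested genes. Under the length fit 12 fell, without drug replicate 2 the falls numbered 2, and total-count scaling gave 5 higher and 4 lower. Dgat2, which makes triglyceride, was at 4.13 and 3.66 CPM at day 0, 18.3 and 20.2 CPM with vehicle and 11.0 and 11.4 CPM with the drugs, highest with vehicle (log2 change with the drugs 1.51, adjusted p = 6.60e-06). Elovl1, a fatty acid elongase, was at 83.9 and 83.4 CPM at day 0, 69.0 and 74.3 CPM with vehicle and 51.5 and 51.3 CPM with the drugs (log2 change -0.70, adjusted p = 6.53e-06), and Elovl7, another, at 3.35 and 3.91 CPM at day 0, 3.08 and 4.10 CPM with vehicle and 9.85 and 8.84 CPM with the drugs (log2 change 1.37, adjusted p = 6.85e-05). Of 28 cholesterol genes 1 rose and 6 fell, together 25.0%. Abca1, the cholesterol exporter, was at 20.6 and 19.2 CPM at day 0, 12.2 and 9.45 CPM with vehicle and 9.37 and 9.23 CPM with the drugs, low in both day 3 groups.

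Ribosome biogenesis was lower with the drugs, with 80% of its tested genes called, against 43.9% of all tested genes. Of 40 tested members 30 fell and 2 rose (median log2 change -0.38), and 20 to 34 fell in the other fits. Nolc1, a nucleolar chaperone, was at 399 and 422 CPM at day 0, 357 and 362 CPM with vehicle and 257 and 278 CPM with the drugs, with a log2 change of -0.62 ± 0.08 (SE; adjusted p = 3.50e-05). Rrp12, of ribosome export, was at 112 and 136 CPM at day 0, 127 and 118 CPM with vehicle and 75.9 and 78.03 CPM with the drugs (log2 change -0.68, adjusted p = 6.12e-05), and Rrp9, of small subunit processing, at 38.1 and 39.4 CPM at day 0, 33.8 and 33.1 CPM with vehicle and 19.9 and 25.6 CPM with the drugs (log2 change -0.75, adjusted p = 1.36e-04). In vehicle against day 0, where 450 of the 11283 tested genes were lower, 1 of the 40 was lower. Ribosomal proteins of the cytosol gave no stable direction: 1 of 49 rose and 1 fell, 23 rose and 0 fell with the length trend removed, and 29 fell without day 0 replicate 2. Their median length was 795 bases, and the day 0 replicates differed in them by a median log2 ratio of 0.33.

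Cell cycle genes moved both ways. Of the DNA replication list 45.2% was called, against 43.9% of all tested genes (22.7% higher and 21.2% lower). Most of its calls were lower. Among DNA replication genes 17 of 42 fell and 2 rose (median log2 change -0.17), but 6 fell without drug replicate 1, 9 without drug replicate 2 and 8 under total-count scaling, where the median was -0.07. Ung, the uracil DNA glycosylase, was at 35.5 and 36.6 CPM at day 0, 36.0 and 33.3 CPM with vehicle and 21.7 and 22.5 CPM with the drugs (log2 change -0.70, adjusted p = 5.13e-05), and E2f2, an activator of the cycle, at 12.4 and 13.96 CPM at day 0, 15.8 and 14.7 CPM with vehicle and 24.9 and 26.7 CPM with the drugs (log2 change 0.98, adjusted p = 1.87e-05). In the mitosis list 12 of 44 fell and 6 rose, together 40.9% against 43.9% of all genes. Without drug replicate 1 there were 4 lower and 1 higher, and without drug replicate 2 there were 6 lower. The length fit gave 17 lower and 9 higher, and total-count scaling turned the balance to 6 lower and 13 higher. Mki67, a marker of dividing cells, was at 1155 and 1243 CPM at day 0, 1447 and 1312 CPM with vehicle and 1326 and 1306 CPM with the drugs, with a log2 change of 0.13 ± 0.09 (adjusted p = 0.223). Of 19 G1 cyclins and inhibitors of their kinases 5 rose, 4 fell and 10 were not called (47.4% called). Ccnd2, cyclin D2, was at 369 and 433 CPM at day 0, 441 and 388 CPM with vehicle and 219 and 223 CPM with the drugs, with a log2 change of -0.86 ± 0.09 (SE; adjusted p = 1.11e-05), while the inhibitors Cdkn2c and Cdkn1b rose by log2 changes of 1.07 and 0.65. Ccng2, an atypical cyclin of arrested cells, was at 21.9 and 18.5 CPM at day 0, 18.3 and 21.2 CPM with vehicle and 45.3 and 43.8 CPM with the drugs (log2 change 1.13, adjusted p = 2.76e-06).

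Many histone genes of the replication-dependent kind were higher in both day 3 groups. The drugs gave calls for 48.1% of the tested ones, all of them higher, against 22.7% of all tested genes called higher. With the drugs 13 of 27 rose and none fell (median log2 change 0.37), with vehicle 18 rose (median 0.68), and in the drugs against vehicle 11 were lower and 1 higher. Over all tested genes 7.74% were called for vehicle against day 0 and 31.9% for the drugs against vehicle. With the drugs, 3 of the 27 rose without day 0 replicate 1, 4 without drug replicate 1 and 6 without drug replicate 2. Hist1h4d was at 8.32 and 6.32 CPM at day 0, 16.4 and 15.5 CPM with vehicle and 13.6 and 12.2 CPM with the drugs and Hist1h2ae at 9.93 and 10.9 CPM at day 0, 21.8 and 19.3 CPM with vehicle and 16.6 and 14.5 CPM with the drugs. Most such transcripts lack a poly(A) tail, and related copies share reads, so levels in poly(A)-enriched RNA are uncertain.

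Energy metabolism was lower in part. Of the oxidative phosphorylation list 51.4% was called, all lower, against 21.2% of all tested genes called lower. Of 35 oxidative phosphorylation genes 18 fell and none rose (median log2 change -0.27), but 11 fell without day 0 replicate 1, 28 without day 0 replicate 2, 7 without drug replicate 1, and 14 with 2 rising when the length trend was removed, with medians of -0.16, -0.34, -0.24 and -0.09. In these genes the day 0 replicates differed by a median log2 ratio of 0.20. Ndufs1, a large subunit of complex I, was at 144 and 141 CPM at day 0, 125 and 127 CPM with vehicle and 108 and 114 CPM with the drugs (log2 change -0.36, adjusted p = 9.46e-04). Of 27 glycolysis and pentose phosphate genes 13 fell and 4 rose, and 7 fell without drug replicate 1. Of these 27 genes 63.0% were called, against 43.9% of all tested genes. Total-count scaling gave 7 higher and 9 lower. Slc2a3, a glucose transporter, was at 14.5 and 15.5 CPM at day 0, 12.1 and 9.70 CPM with vehicle and 4.73 and 3.81 CPM with the drugs, with a log2 change of -1.82 ± 0.16 (SE; adjusted p = 2.29e-06), and Slc16a1, a lactate transporter, at 177 and 189 CPM at day 0, 162 and 149 CPM with vehicle and 111 and 109.9 CPM with the drugs (log2 change -0.73, adjusted p = 5.25e-06). The hypoxia list was divided, with 7 of 19 higher and 8 lower, together 78.9% against 43.9% of all tested genes. Without drug replicate 1 there were 4 lower, and without drug replicate 2 there were 3 higher. Total-count scaling turned the balance to 10 higher and 5 lower. Ero1l, an oxidase of the secretory pathway, was at 670.3 and 630.0 CPM at day 0, 479 and 448 CPM with vehicle and 276 and 281 CPM with the drugs (log2 change -1.22, adjusted p = 7.81e-08).

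Redox and stress genes gave a mixed account. Of the glutathione and NRF2 list 50% was called, against 43.9% of all tested genes (22.7% higher and 21.2% lower). In the glutathione and NRF2 list 10 of 24 fell and 2 rose, the risers being Gsr, glutathione reductase, at 168 and 174 CPM at day 0, 212 and 242 CPM with vehicle and 353 and 371 CPM with the drugs, and Prdx1, a peroxiredoxin, at 148 and 118 CPM at day 0, 117 and 132 CPM with vehicle and 245 and 271 CPM with the drugs. Their log2 changes were 1.08, adjusted p = 3.96e-07, and 0.95, adjusted p = 1.15e-05. With the length trend removed 6 rose, and 6 fell without drug replicate 1. Of 22 genes of the unfolded protein response 40.9% were called, a share near that of all tested genes: 7 rose by log2 changes of at most 0.42 and 2 fell, and 1 rose without drug replicate 1, 3 without drug replicate 2 and 4 without day 0 replicate 1. Of 21 p53 and apoptosis genes 6 rose and 4 fell, together 47.6%, near the 43.9% of all tested genes. Fas, a death receptor, was at 0.598 and 0.166 CPM at day 0 and 2.40 and 2.19 CPM with the drugs (log2 change 2.44, adjusted p = 6.07e-04), Mcl1, a survival factor, at 205 and 199 CPM at day 0, 170.2 and 163 CPM with vehicle and 152 and 151 CPM with the drugs (log2 change -0.42, adjusted p = 3.07e-04), and Trp53, the gene of p53, was not called.

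Some immediate early genes were lower on day 3 with and without the drugs. The drugs gave calls for 50% of the tested ones, against 43.9% of all tested genes. With the drugs 6 of 18 fell and 3 rose (median log2 change -0.21), and with vehicle 6 fell and none rose (median -0.53). For vehicle against day 0, 7.74% of all tested genes were called. The median with the drugs was -0.08 without day 0 replicate 1, -0.38 without day 0 replicate 2 and -0.38 without drug replicate 1. Egr2 was at 1.38 and 2.33 CPM at day 0, 0.474 and 0.669 CPM with vehicle and 0.320 and 0.323 CPM with the drugs (log2 change with the drugs -2.44, adjusted p = 0.00101). Fosl2, an AP-1 subunit, went the other way, at 21.3 and 25.3 CPM at day 0, 25.8 and 26.2 CPM with vehicle and 73.9 and 69.6 CPM with the drugs, with a log2 change of 1.63 ± 0.09 (SE; adjusted p = 3.07e-08). Fosl1 and Junb, other AP-1 subunits, fell by 1.57 and 0.90.

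For other lineages, few of the listed genes had enough counts to be tested. For T and NK cells 1 of 14 listed genes was tested, with a summed level of 1.62 and 1.91 CPM at day 0, 0.949 and 0.920 CPM with vehicle and 1.20 and 0.968 CPM with the drugs, and Cd3d, Cd3e, Cd3g and Cd4 had no count at day 0 or with the drugs. Of 17 erythroid genes 3 were tested, with a summed level of 652 and 774 CPM at day 0, 732 and 675 CPM with vehicle and 606 and 629 CPM with the drugs. Most of that sum came from genes not named here, beside Car2 at 78.3 and 73.0 CPM at day 0. Car2 fell, and the globin genes Hba-a1 and Hba-a2 had no count at day 0 or with the drugs. These globin genes are near-identical copies, so their lack of counts is uncertain. Of 13 megakaryocyte genes 3 were tested and all 3 fell: Gp9 was at 4.13 and 3.32 CPM at day 0 and 0.641 and 0.516 CPM with the drugs, Pf4 at 2.33 and 1.25 CPM at day 0 and 0.400 and 0.387 CPM with the drugs and Itga2b as above. Their summed level was 44.6 and 33.5 CPM at day 0, 16.2 and 21.3 CPM with vehicle and 18.7 and 14.4 CPM with the drugs. Stromal and endothelial genes, none of whose 4 tested members was called, summed to 251 and 257 CPM at day 0, 203 and 192 CPM with vehicle and 281 and 279 CPM with the drugs. The part of these markers in the results was not tested.

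Among mast cell and basophil genes 4 of 7 tested rose and 2 fell, with a summed level of 2046 and 1946 CPM at day 0, 1588 and 1512 CPM with vehicle and 2638 and 2524 CPM with the drugs, most of it from Kit and Cpa3, a protease of mast cells. Gata2, which progenitors also express, was at 65.7 and 65.7 CPM at day 0, 61.8 and 62.3 CPM with vehicle and 89.2 and 87.6 CPM with the drugs (log2 change 0.43, adjusted p = 2.45e-04), while Fcer1a and the tryptases Tpsab1 and Tpsb2 had no count at day 0 or with the drugs. Eosinophil genes, 5 of 10 tested, summed to 281 and 245 CPM at day 0, 230.2 and 254 CPM with vehicle and 257 and 252 CPM with the drugs, and Ear1 and Ear2 were at 0. Tpsab1 and Tpsb2, like Ear1 and Ear2, are close copies of each other, so their lack of counts is uncertain. Of 14 dendritic cell genes 4 were tested and 2 rose (Flt3 and Tcf4) and Itgax fell, with a summed level of 256 and 257 CPM at day 0, 320.2 and 319 CPM with vehicle and 579.6 and 598 CPM with the drugs, most of it from Flt3. In the B cell list 2 of 9 rose and 3 fell, with a summed level of 156 and 162 CPM at day 0, 175 and 168 CPM with vehicle and 127 and 123 CPM with the drugs. Cd22, an inhibitory receptor, had no count at day 0 or with vehicle and 45 and 59 counts in the drug cultures, which was at least 35.6-fold higher, taking 3 counts as the floor. It passed the count filter only through the drug cultures and could enter only as higher. Of the 9 tested B cell genes 55.6% were called, against 43.9% of all tested genes. Igll1, of the pre-B receptor, was at 19.0 and 18.2 CPM at day 0, 16.9 and 21.2 CPM with vehicle and 5.37 and 5.68 CPM with the drugs, and Rag1, a recombinase, at 1.56 and 1.75 CPM at day 0, 3.08 and 2.01 CPM with vehicle and 7.13 and 5.94 CPM with the drugs.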

How the data were processed

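Polyadenylated RNA of 6 cultures was sequenced. The authors deposited raw counts of reads per gene, without normalization, with each gene's length in bases (another unit). STAR 2.7.0f, deepTools 3.0.2 and the mm10 genome are named, per the submitters' processing notes. The sources used here do not state the strand setting, the treatment of multiply mapped reads or the annotation release, so overlapping genes and close copies are uncertain.

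Counts were filtered with filterByExpr (minimum count 10; 11283 of 23337 genes kept, 8069 had no count), scaled by TMM and fitted over all 6 libraries (3 residual degrees of freedom, common biological coefficient of variation 0.0592) with edgeR 4.0.16 under R 4.3.3. The filter also kept genes with enough counts in 1 group alone. Gfi1b, Cybb, Itga1, Cd22, Ifi204, Fas and Il18, among others, passed only through the drug cultures, which tilts the counts and medians of their lists toward rises. The quasi-likelihood F test was used at 0.05 after Benjamini-Hochberg adjustment across the tested genes. SEs come from the F statistic. Log2 changes carry a prior count of 0.125. CPM uses TMM-scaled totals, and TPM the deposited lengths. Intervals and floors cover counting error only. Replicates differed by more than counting error (chi-square per degree of freedom 14.1 at day 0, 5.78 with vehicle, 1.85 with the drugs). The model and the length offset were run on simulated data. There the planted length trend was the same in both day 0 libraries, whereas the real day 0 replicates differed in it. The simulation therefore cannot show how the offset handles that difference.

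Of 987 genes on 43 lists the table holds 984, with 11 under an older symbol. Gene names that look like dates number 25. The comparison, the lists and the members were chosen with earlier results of these data known. Named genes are the 10 largest rises and 10 largest falls among called genes without overlap and with at least 10 CPM in the higher group, up to 4 called members a list (2 by smallest p, 2 by largest change) and 16 key genes. A few of the genes so chosen are not reported here. Further list members, genes near 0 and members that moved against their list were named after their values were seen. Promoter sequences are from RefSeq (GRCm38.p6), and 8063 of 11283 tested genes matched. Upstream windows are printed for a subset, 5 of the leading genes and 3 of the ATF4 list. Alternatives were DESeq2 1.42.0, 2 other scalings, no filter, fewer libraries, Rn45s removed, a minimum change of 1.5-fold, a replicate block and, added after seeing the data, the length offset.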

Additional observations from a re-analysis of the deposited data

How the results depend on the processing

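The counts of called genes were recomputed in 14 other fits and with a minimum change of 1.5-fold. No gene called in one direction was called in the other by any of the 14. With that minimum change 647 genes were higher and 239 lower. Total-count scaling gave 3141 higher and 1321 lower, and DESeq2 gave 1869 and 1671. Leaving out 1 library at a time gave 1659 to 2617 higher and 1199 to 2598 lower, the lowest without drug replicate 1, and for changes over 2-fold 624 to 680 higher and 191 to 274 lower. With a replicate block 2296 were higher and 2031 lower. Deviations of the same-numbered drug and day 0 cultures correlated at -0.08 across genes, and the labels name no shared source for a number, so the block is an alternative only. Of 133 named genes 128 were called, and 114 of those kept their call in every fit that tested them. The sign turned for 3 genes that were not called: Kdm1a under total-count scaling (0.0026), Fasn under total-count scaling (0.040) and when 1 library was left out (-0.20 without day 0 replicate 1 to 0.092 without day 0 replicate 2), and Mki67 with the length trend removed (-0.054). Medians of 36 of 43 lists kept their sign. The cause of these differences was not tested. Genes with few counts limit the precision: 3 counts over a group correspond to 0.104 CPM at day 0 and 0.107 CPM with the drugs.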

Other observations

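Further genes of the myeloid lists, chosen after their values were seen, also differed between the drugs and day 0. Among transcription factors, Cebpd, a C/EBP protein of late granulocytes, was at 5.38 and 5.82 CPM at day 0, 6.17 and 8.28 CPM with vehicle and 12.3 and 15.6 CPM with the drugs (log2 change with the drugs 1.33, adjusted p = 5.84e-05). Runx1, a regulator of blood progenitors, was at 40.3 and 44.9 CPM at day 0, 60.1 and 52.5 CPM with vehicle and 80.9 and 78.6 CPM with the drugs (log2 change 0.91, adjusted p = 3.24e-06), and Bcl6, a repressor, at 4.19 and 6.32 CPM at day 0, 3.79 and 3.76 CPM with vehicle and 12.3 and 11.9 CPM with the drugs (log2 change 1.23, adjusted p = 1.32e-04). Il6ra, the partner of Il6st in the interleukin 6 receptor, was at 9.57 and 11.2 CPM at day 0, 14.1 and 14.4 CPM with vehicle and 22.0 and 27.6 CPM with the drugs (log2 change 1.27, adjusted p = 1.06e-05). Padi4, the arginine deiminase of neutrophil chromatin, was at 5.09 and 5.65 CPM at day 0, 4.98 and 6.77 CPM with vehicle and 11.2 and 9.75 CPM with the drugs (log2 change 0.97, adjusted p = 6.85e-04), and Clec4a2, an inhibitory lectin, at 1.68 and 1.08 CPM at day 0, 2.29 and 2.34 CPM with vehicle and 9.61 and 11.7 CPM with the drugs (log2 change 2.91, adjusted p = 5.31e-07). Because these 6 genes were picked by their values, the lack of overlap between their drug and day 0 replicates is no further support. Il18, a cytokine released through the inflammasome, had 3 counts over the day 0 cultures and 25 over the drug cultures, a ratio of 8.56 (exact 95% binomial interval 2.61 to 44.3).

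Of the glutathione and NRF2 list, of which 12 of 24 members were not called, 3 of the 10 that fell are given here, chosen after their values were seen. Fth1, the ferritin heavy chain, was at 627 and 588 CPM at day 0, 648 and 636 CPM with vehicle and 415 and 421 CPM with the drugs (log2 change -0.54, adjusted p = 9.94e-05), Gpx4, which reduces lipid peroxides, at 85.1 and 63.6 CPM at day 0, 58.2 and 71.6 CPM with vehicle and 53.1 and 55.0 CPM with the drugs (log2 change -0.47, adjusted p = 0.00879), and Srxn1, sulfiredoxin, at 16.9 and 18.5 CPM at day 0, 15.1 and 16.3 CPM with vehicle and 10.3 and 11.9 CPM with the drugs (log2 change -0.66, adjusted p = 9.46e-04). Fth1 and Gpx4 are short genes, of 866 and 1201 bases, and the day 0 replicates differed for genes of that length as described above.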
